A study of Mus musculus with 6 samples.

Results

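The genes described here were 8 haemostasis genes of the vessel wall, Vwf, F8, Selp, Procr, Tfpi, Plat, F3 and F2r, out of 31053 genes in each count matrix. They were listed by name, with no level or change as a criterion, though earlier results of these data were known when the list was made. Their levels were followed in endothelial cells (ECs) of the developing mouse lung over 4 ages, in subsets of those ECs gated on single genes, and in the 4 main cell classes of whole lungs. An EC was a cell with at least 2 unique molecular identifiers (UMIs, each counting 1 captured mRNA molecule) of the endothelial junction genes Pecam1 and Cdh5 together. In the whole lungs an EC also had to belong to the endothelial class, a condition not set in the sorted libraries. Within the ECs, 4 overlapping gates were set at Eln of at least 10 UMIs (elastin, high in the proximal arterial wall), Gja4 of at least 2 (an arterial gap junction gene), Gpihbp1 of at least 2 (a capillary lipase carrier) and Car4 of at least 2 (a marker of the large alveolar capillary cell called aerocyte or aCap).

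The endothelium keeps blood fluid and still carries the means to seal a wound. Von Willebrand factor, made from Vwf, tethers platelets to a damaged wall and carries coagulation factor VIII, made from F8, and ECs store it in Weibel-Palade bodies together with P-selectin, made from Selp, which captures leukocytes and platelets. On the opposing side, the endothelial protein C receptor (Procr) presents protein C for activation, tissue factor pathway inhibitor (Tfpi) blocks the first step of coagulation, and tissue plasminogen activator (Plat) starts clot lysis. Tissue factor (F3) is the trigger of coagulation and is classically kept outside the vessel lumen, and protease-activated receptor 1 (F2r) lets cells sense thrombin. In the adult lung, Vwf protein is known to be strong in arteries and veins and weak in the alveolar capillaries.

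The study asked how the lung endothelium diversifies around the chemokine gene Cxcl12. Cells were sorted from Cxcl12DsRed/+ lungs of P8 pups and of embryos of 3 ages, E13.5, E15.5 and E18.5. All of these lungs carried DsRed knocked into exon 1 of 1 Cxcl12 allele, 2 to 4 lungs were pooled for each age, and each age gave 1 library. The sort took CD31+ and DsRed+ cells (the red channel is named TdTomato in the labels) that lacked CD45 and EpCAM, and DsRed+ mesenchymal cells without CD31 were collected as well. A further 2 libraries came from whole, unsorted E18.5 lungs, 1 labelled as the Cxcl12DsRed/+ control and 1 as the Cxcl12DsRed/DsRed null, and 2 lungs of each genotype were used, though whether each library pools both is not given in the sources used here. There was thus 1 library for each condition. No p-value can be given, the intervals beside the levels cover counting error only, and age, genotype and library cannot be told apart.

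The libraries held 63746333 to 117522172 UMIs, and 7448 to 12726 cells per library were kept with a median of 5647 to 9042 UMIs each. The EC gate took 210 E13.5 cells, 9453 E15.5 cells, 9119 E18.5 cells, 8259 P8 cells, 1695 in the library labelled control and 2691 in the library labelled null. Any pair of libraries shared 20 to 140 cell barcodes, at most 1.58% of the smaller library, and the 2 whole lungs shared the most, with 16 kept in both. The Cxcl12 level went against the whole-lung labels, and so do the genotypes in the names of the deposited files. In the endothelial class it was 5.44 CPM (UMIs per 1000000 UMIs of the cells summed) in the library labelled control and 563 CPM in the library labelled null, so these 2 libraries are called by their labels throughout and no direction between them is read as an effect of the genotype. All 10 endothelial markers reached at least 10 CPM in the E13.5 ECs, but the E13.5 ECs also held 907 CPM of a list of 10 mesenchymal markers, against 429 CPM in the E15.5, 161 CPM in the E18.5 and 26.9 CPM in the P8 ECs. A list of 8 platelet and megakaryocyte markers summed to 3.33 to 15.4 CPM in the sorted ECs, with none of the 8 at 10 CPM or more.

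The 8 genes lie on 7 chromosomes of the mm10 (GRCm38) assembly. Vwf spans chr6:125546774-125686679, Procr chr2:155751117-155755471, F8 chrX:75172715-75382615, Plat chr8:22757727-22782844, Tfpi chr2:84432855-84476775, Selp chr1:164115264-164150026, F3 chr3:121723537-121735048 and F2r chr13:95601803-95618487. No stretch of 60 bases in the last 300 bases of their transcripts, where the 3′ tags fall, was found in another gene. Among genes of the matrices, F8 overlaps Fundc2, and Selp overlaps Gm16587 and Gm16548, all on the opposite strand. F8 also spans 2 pseudogenes outside the matrices, Gm6039 on the opposite and Gm8522 on the same strand. Of the RefSeq promoters at hand (GRCm38.p6, 250 bases before to 50 after the start), 7 belonged to 6 of the members and none to Vwf or Plat. Those of Procr, F3 and F2r are shown because they share a feature that the choice of the genes did not use, the letters TGAGTCA (on the other strand TGACTCA, in capitals), which are those of an AP-1 site. The motif was picked after the sequences had been seen. It stood in 3 of the 7 member promoters and in 5.20% of 32851 promoters of the same length, and a match of letters is a description and not a shown binding site.
Procr, chr2:155750967-155751266, plus strand: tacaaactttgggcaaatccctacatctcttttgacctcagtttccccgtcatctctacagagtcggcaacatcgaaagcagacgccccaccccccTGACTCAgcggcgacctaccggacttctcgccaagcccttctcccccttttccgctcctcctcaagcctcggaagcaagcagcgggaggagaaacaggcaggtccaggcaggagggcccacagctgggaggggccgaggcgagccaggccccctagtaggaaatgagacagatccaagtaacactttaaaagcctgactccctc
F3, chr3:121723287-121723586, plus strand: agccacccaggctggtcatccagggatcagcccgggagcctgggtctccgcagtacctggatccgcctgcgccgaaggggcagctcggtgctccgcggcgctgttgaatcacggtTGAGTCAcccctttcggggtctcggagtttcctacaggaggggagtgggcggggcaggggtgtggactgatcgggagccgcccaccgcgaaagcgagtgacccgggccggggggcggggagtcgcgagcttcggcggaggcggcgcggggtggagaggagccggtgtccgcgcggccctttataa
F2r, chr13:95618417-95618716, minus strand: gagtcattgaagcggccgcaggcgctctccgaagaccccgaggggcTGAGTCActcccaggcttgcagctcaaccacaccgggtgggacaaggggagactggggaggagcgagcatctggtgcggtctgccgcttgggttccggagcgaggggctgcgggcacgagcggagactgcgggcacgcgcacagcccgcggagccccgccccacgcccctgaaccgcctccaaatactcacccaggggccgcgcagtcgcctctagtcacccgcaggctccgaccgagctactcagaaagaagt
The first base of the match lay 154 bases before the start in Procr, 135 in F3 and 204 in F2r.

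In the sorted ECs, 2 members stood out between E18.5 and P8: Plat was over 5 times higher and Procr about 4 times lower at P8, whereas Tfpi differed little in the summed sorted ECs. Vwf was highest at E13.5, lowest at E15.5 and in between at E18.5 and P8. F2r was at 33.2 to 57.7 CPM in summed ECs, and F8, Selp and F3 were low, under 10 CPM, at every age. Each level sums the UMIs over all cells of a population.

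Vwf, the platelet tether, was measured at 281 CPM (95% interval 257 to 306) in E13.5 ECs, 108 CPM (106 to 110) at E15.5, 219 CPM (215 to 222) at E18.5 and 136 CPM (134 to 139) at P8. The whole-lung ECs gave 120.1 CPM (115 to 126) in the library labelled control and 131 CPM (126 to 135) in the library labelled null. The 4 sorted ages were all apart by more than counting error, and the sorted E18.5 level was above that of both whole lungs of the same age. With every cell thinned to 2000 UMIs, Vwf was seen in 42.8% of E13.5, 17.5% of E15.5, 24.1% of E18.5 and 15.2% of P8 ECs. Without thinning these shares were 64.3%, 33.4%, 35.7% and 24.0%. In the epithelial class of the whole lungs, which should lack Vwf, the thinned share was 0.289% in the library labelled control and 1.14% in the library labelled null, at median depths of 14426 and 18732.5 UMIs against 7607 and 8415 UMIs in the whole-lung ECs.

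A gene was called between 2 populations when it differed by at least 2-fold on the log2(CPM + 0.5) scale and had at least 10 CPM in the higher one. F8, Selp and F3 were under 10 CPM in summed ECs at every age and could not be called. The members tested between ages were thus Vwf, Procr, Plat, Tfpi and F2r. From E13.5 to E15.5, Vwf was called lower (log2 difference of -1.38) and no other member was called, 1 of 8, where 7.15% of the 8396 genes tested were called in either direction. From E15.5 to E18.5, Vwf was again the only called member, with a log2 difference of 1.02, against 13.7% of genes tested. That call sat at the threshold and was lost in 4 of the 8 other settings tried, and its log2 difference was 0.73 when each cell counted equally. The E13.5 value rests on 210 ECs, and the mesenchymal list moved with it, as given above; its part in the result was not tested.

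Plat, the plasminogen activator, was at 14.4 CPM (9.42 to 21.1) in ECs at E13.5, 11.6 CPM (10.95 to 12.3) at E15.5, 18.6 CPM (17.5 to 19.7) at E18.5 and 103 CPM (101 to 106) at P8. The whole lungs gave 5.77 CPM (4.63 to 7.11) in the library labelled control and 12.2 CPM (10.9 to 13.6) in the library labelled null. The P8 level was thus far above those of the 3 E18.5 libraries, which did not overlap with it. Plat UMIs were found in 3.24% of E18.5 ECs and 17.5% of P8 ECs at 2000 UMIs per cell, and in 8.33% and 41.7% of them without thinning. The epithelial class gave 0.145% in the library labelled control and 0% in the library labelled null after thinning. The log2 difference between E18.5 and P8 was 2.44.

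Procr, the protein C receptor, showed the opposite order at the last step. It was at 35.0 CPM (26.9 to 44.7) in ECs at E13.5, 40.6 CPM (39.3 to 41.9) at E15.5, 72.8 CPM (70.7 to 75.0) at E18.5 and 17.8 CPM (16.7 to 18.8) at P8. In the whole-lung ECs it was at 55.7 CPM (52.0 to 59.5) in the library labelled control and 50.6 CPM (48.0 to 53.3) in the library labelled null. The P8 level was the lowest of the 6, and the E13.5 and E15.5 intervals overlapped. The log2 difference between E18.5 and P8 was -2.01. Procr and Plat were the 2 of 8 members called at this step, where 8.48% of 8466 genes tested were called. F8, Selp and F3 were again too low to be tested. With either whole lung standing in for the sorted E18.5 library, an alternative chosen after seeing the data, 3 members were called, Procr, Plat and F2r, against 12.3% and 10.7% of genes.

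Tfpi, which shuts off the tissue factor complex, was at 56.6 CPM (46.2 to 68.7) in ECs at E13.5, 100.3 CPM (98.3 to 102) at E15.5, 61.8 CPM (59.8 to 63.8) at E18.5 and 58.5 CPM (56.6 to 60.4) at P8. The whole lungs gave 108 CPM (102 to 113) in the library labelled control and 84.7 CPM (81.3 to 88.3) in the library labelled null. It was highest at E15.5 among the sorted ages, and E18.5 and P8 were nearly level with a log2 difference of -0.08. Within ECs of exactly 1 gate or none, the difference to P8 was -0.08 for Gja4 only, -0.46 for Gpihbp1 only, -0.08 for Car4 only and -0.78 for no gate (72.5 CPM to 41.9 CPM). Against the whole lungs in place of the sorted E18.5 library it was -0.87 for the library labelled control and -0.53 for the library labelled null. These comparisons set unsorted ECs against sorted ones. The measured Tfpi level was lower at P8 in each comparison and was called in none. The counting intervals for Gja4 only (-0.30 to 0.13) and Car4 only (-0.51 to 0.35) included no difference. F2r, the thrombin receptor, was at 56.0 CPM (45.7 to 68.1) at E13.5, 41.9 CPM (40.6 to 43.2) at E15.5, 57.7 CPM (55.8 to 59.6) at E18.5 and 33.2 CPM (31.7 to 34.6) at P8. Both whole lungs lay above all sorted ages for F2r, at 83.4 CPM (78.9 to 88.1) in the library labelled control and 91.2 CPM (87.6 to 94.8) in the library labelled null.

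The other 3 members stayed below 10 CPM in summed ECs at every age. F8 was at 2.77 CPM (0.901 to 6.48) at E13.5, 1.01 CPM (0.815 to 1.23) at E15.5, 2.21 CPM (1.85 to 2.62) at E18.5 and 1.22 CPM (0.956 to 1.52) at P8. Selp had no UMI at E13.5, which allows a level of up to 1.66 CPM at 3 counts, and was at 0.608 CPM (0.462 to 0.786) at E15.5, 0.965 CPM (0.733 to 1.25) at E18.5 and 4.46 CPM (3.94 to 5.01) at P8. Selp was therefore 4.62-fold higher at P8 than at E18.5, but under the limit set for a call. F3 had no UMI in the E13.5 ECs, with the same limit of 1.66 CPM, and was at 0.503 CPM (0.371 to 0.667), 1.30 CPM (1.03 to 1.62) and 0.551 CPM (0.382 to 0.770) at the following 3 ages in turn. F3 was seen in 0.182% to 0.391% of the ECs of the 3 older ages before thinning.

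**Figure D1:**
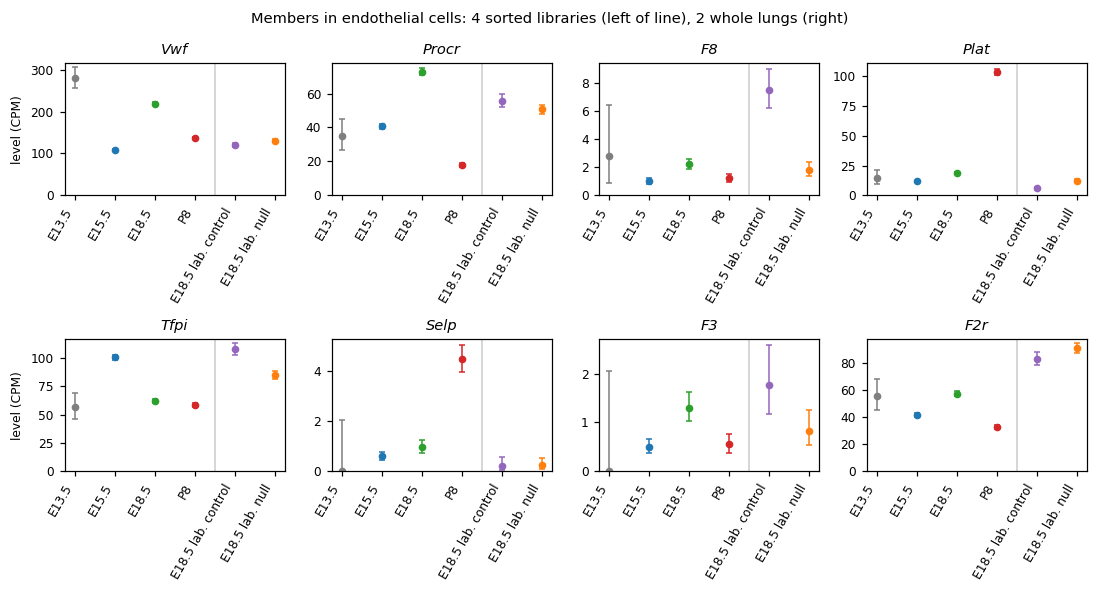
Level of each of the 8 genes in endothelial cells of the 4 sorted ages and the 2 whole E18.5 lungs, in CPM of summed UMIs, with bars for exact 95% counting intervals. Plat stands at 103 CPM on P8 and at 18.6 CPM or less in every other library, while Procr stands at 72.8 CPM on E18.5 and at 17.8 CPM on P8.

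The genes also differed between gated subsets of the ECs. In every library where an Eln gate could be set, Vwf was 3.92 to 11.7 times higher inside the gate than in the other ECs. Procr shared this side, and Tfpi lay on the opposite one at a smaller size. The Gpihbp1 and Car4 gates showed the reverse for Vwf and Procr. The Eln gate held 1513 E15.5 ECs, 803 E18.5 ECs, 398 P8 ECs, 90 in the library labelled control and 200 in the library labelled null, and only 47 E13.5 ECs, too few to be used.

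Inside the Eln gate Vwf was at 445 CPM (434 to 456) at E15.5, 629 CPM (611 to 647) at E18.5, 960 CPM (929 to 991) at P8, 593 CPM (553 to 635) in the library labelled control and 585 CPM (559 to 612) in the library labelled null. Outside it Vwf was at 47.7 CPM, 160.4 CPM, 82.0 CPM, 73.7 CPM and 71.0 CPM in the same order. The lowest level inside the gate was above the highest outside it. The log2 differences were 3.21, 1.97, 3.54, 2.999 and 3.04, and 3.22% of 7672 genes were called higher in the gate in all 3 sorted libraries. At P8, 77.8% of gated cells and 12.01% of the others had a Vwf UMI after thinning to 2000 UMIs, and 95.5% and 20.4% before it.

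Procr in the Eln gate was at 62.1 CPM on E15.5, 134 CPM on E18.5, 95.9 CPM on P8, 89.5 CPM in the library labelled control and 78.3 CPM in the library labelled null. The other ECs had 36.7 CPM, 64.2 CPM, 12.6 CPM, 52.3 CPM and 47.0 CPM of Procr in the same order. The log2 differences were 0.75, 1.06, 2.88, 0.77 and 0.73, so Procr was higher in the gate each time and was called at E18.5 and at P8, where 13.2% and 11.3% of genes were called in the gate. The E18.5 call was lost with each cell counted equally (0.94). The gap was widest at P8, where the level outside the gate was lowest. Plat was at 200.1 CPM (186 to 215) in the gate and 97.1 CPM (94.6 to 99.6) outside it at P8. The log2 difference was 1.04 (0.91 with gates set on thinned cells, under the threshold), with 0.25 to 0.89 in the other libraries. Gates on thinned cells had lower limits, at least 3 UMIs of Eln or 1 of Gja4, Gpihbp1 or Car4. The ECs were then taken on thinned counts too.

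Selp was the member with the widest ratio across the Eln gate at P8. It reached 59.8 CPM (52.3 to 68.1) inside the Eln gate and 0.795 CPM (0.582 to 1.06) outside it, where 229 of its 275 EC UMIs lay inside, in 92 of the 398 gated cells. At E15.5 and E18.5 the gated level was only 2.15 CPM (1.46 to 3.05) and 3.21 CPM (2.06 to 4.77), against 0.333 CPM and 0.646 CPM outside. Platelets also carry P-selectin, and their part in the Selp level was not tested. The platelet list summed to 5.49 CPM inside the P8 gate and 8.38 CPM outside it, with Ppbp, Gp9 and Gp6 at 0 inside.

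Tfpi was lower in the Eln gate in all 5 libraries, with log2 differences of -0.50 on E15.5, -0.61 on E18.5, -0.47 on P8, -0.34 in the library labelled control and -0.36 in the library labelled null, none of them past 2-fold. F2r had no fixed side, from 0.96 at E15.5 to -0.73 in the library labelled control. F3 was called in the library labelled control (12.4% of genes in either direction), at 11.7 CPM (6.71 to 19.1) in 90 gated cells and 0.792 CPM outside, but its log2 difference of 3.24 dropped to 0.80 without the cells marked as doublets. The mesenchymal list was higher in the Eln gate as well, at 1641 CPM against 212 CPM on E15.5, 681 CPM against 86.9 CPM on E18.5, 244 CPM against 12.5 CPM on P8, 1370 CPM against 79.5 CPM in the library labelled control and 1449 CPM against 90.2 CPM in the library labelled null. Vwf in mesenchymal cells was low, at 0.984 CPM and 3.75 CPM in the mesenchymal class of the libraries labelled control and null, and the list's part in the gate differences was not tested.

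**Figure D2:**
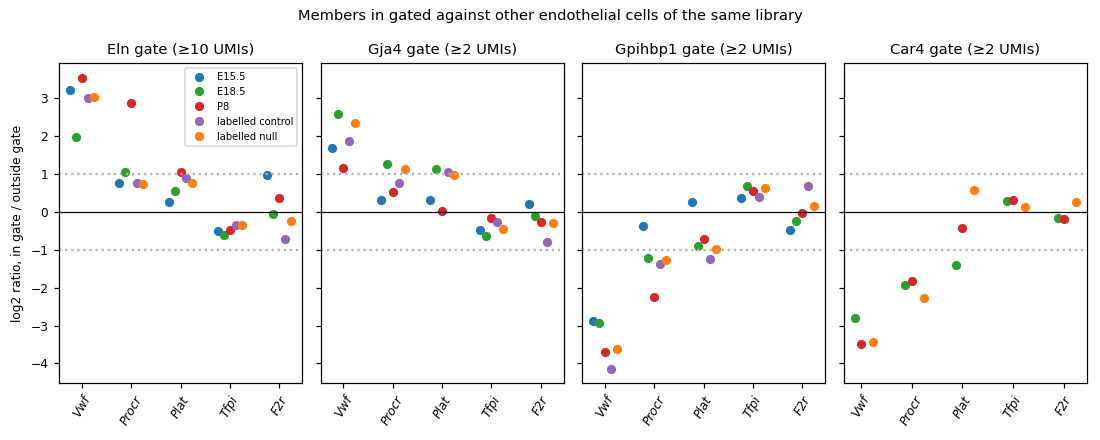
Log2 ratio of CPM (0.5 CPM added) inside against outside each of the 4 gates for Vwf, Procr, Plat, Tfpi and F2r, 1 point per library with at least 50 cells on both sides, with dotted lines at 2-fold. Vwf lies above the upper line for the Eln and Gja4 gates and below the lower line for the Gpihbp1 and Car4 gates in every library shown.

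The Gja4 gate, which took 75.8% of E15.5, 65.3% of E18.5 and 77.04% of P8 ECs, also held more Vwf. Inside it Vwf was at 131 CPM on E15.5, 298 CPM on E18.5, 151 CPM on P8, 238 CPM in the library labelled control and 215 CPM in the library labelled null. Outside it the levels were 40.7 CPM, 49.7 CPM, 67.5 CPM, 64.2 CPM and 41.9 CPM. Every library had the higher level inside, with log2 differences of 1.67, 2.57, 1.15, 1.88 and 2.35, and 0.419% of 7400 genes were called higher in the gate in all 3 sorted libraries. The P8 difference was 0.77 with each cell counted equally. Against cells of no gate, cells of the Gja4 gate alone had differences of 0.63 at P8 and 0.45 in the library labelled control, so both calls were lost. Procr and Plat were called in the Gja4 gate at E18.5 only among the sorted ages, at 1.26 and 1.12, where 7.71% of genes were called, and the Plat call was lost with a pseudocount of 5 CPM (0.87). In the whole lungs Procr was called higher in the gate of the library labelled null (1.13, 6.45% of genes called) and F8 lower in that of the library labelled control, at 2.04 CPM from 10 UMIs against 10.2 CPM from 105 UMIs (-2.07, 6.43% of genes called).

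The Gpihbp1 gate, set on a capillary gene, also held cells of the Gja4 gate. At P8 it took 6079 and the Gja4 gate 6363 of 8259 ECs. Cxcl12 in the Gpihbp1 gate was at 453 CPM on E18.5 and 860 CPM on P8. Cells of this gate alone had 54.5 CPM and 422 CPM. Vwf was low throughout in the gate, at 20.6 CPM on E15.5, 51.6 CPM on E18.5 and 41.2 CPM on P8. The gate of the library labelled control had 29.1 CPM and that of the library labelled null 35.6 CPM. ECs outside it had 155 CPM, 398 CPM, 543 CPM, 519.9 CPM and 447 CPM. The 2 sets of levels did not overlap, the log2 differences were -2.88, -2.93, -3.71, -4.13 and -3.63, and 1.6% of 7445 genes were called lower in the gate in all 3 sorted libraries. Procr was lower in the gate too, by -0.38, -1.21, -2.24, -1.39 and -1.26 on the log2 scale. It was not called on E15.5, so it is not among that 1.6%. For cells of this gate alone against cells of no gate, the Procr calls were lost at E18.5 (-0.77), at P8 (-0.65) and in the library labelled null (-0.57). With gates set on thinned cells, where the limit was lowered to 1 UMI, they were lost in the libraries labelled control (-0.65) and null (-0.73). Tfpi was the member that was higher in the gate in all 5 libraries, by 0.37, 0.68, 0.56, 0.39 and 0.62, again under 2-fold each time, while F8, F2r and Plat changed sign between libraries. Plat was called lower in the gate of the library labelled control (-1.24). That call was lost with a pseudocount of 5 CPM (-0.78) and with gates set on thinned cells (-0.45). The share of all genes called in this gate in a single library is not given here. The Procr and Plat calls in it therefore stand without that measure. Selp at P8 was at 1.48 CPM in the gate and 17.2 CPM outside it.

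The Car4 gate could be set at E18.5 with 852 ECs, at P8 with 1783 and in the library labelled null with 185, and E15.5 had 10 such cells. Vwf was at 34.5 CPM (30.3 to 39.1), 17.2 CPM (15.4 to 19.1) and 12.5 CPM (8.40 to 18.02) in these gates, against 243 CPM, 197 CPM and 141 CPM in the other ECs. The log2 differences were -2.80, -3.48 and -3.44, and 1.78% of 7909 genes were called lower in the gate in both sorted libraries. Procr was at 20.6 CPM, 6.30 CPM and 10.8 CPM inside and 79.8 CPM, 23.6 CPM and 54.2 CPM outside. ECs outside the gate include arterial-type cells, so groups of exactly 1 gate were also set side by side. ECs with the Car4 gate only had 10.2 CPM (5.59 to 17.1) of Vwf on E18.5 and 5.67 CPM (2.28 to 11.7) on P8. Those with the Gpihbp1 gate only had 15.3 CPM (13.03 to 17.7) and 14.2 CPM (11.02 to 17.9). The Car4 only level was the lower at both ages, from 14 and 7 UMIs. The single intervals overlapped, which does not show equal levels. Plat changed place with the library, with log2 differences of -1.41 at E18.5 (-0.94 with gates set on thinned cells, under the threshold), -0.42 at P8 and 0.58 in the library labelled null. At P8 the Car4 gate held 32 Selp UMIs, all of them in 5 cells.

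Because the gates overlap and their shares of ECs differed between ages, the ages were compared again within ECs that passed exactly 1 gate or none. At E15.5, 5737 of 9453 ECs passed exactly 1 gate and 965 none. At E18.5 these were 5116 and 791 of 9119 ECs, and at P8 only 2410 and 333 of 8259. The other ECs passed more than 1 gate and were left out, so the comparison covers a smaller part of the P8 ECs. ECs with the Eln gate only, 46 at E18.5 and 36 at P8, were too few to be compared. The difference in Plat between E18.5 and P8 was present in each of the other 4 groups. Plat went from 28.2 CPM to 138 CPM in ECs with the Gja4 gate only, where 4.79% of genes were called higher at P8. It went from 11.1 CPM to 97.1 CPM with the Gpihbp1 gate only (4.96% of genes), from 3.65 CPM to 89.1 CPM with the Car4 gate only (7.83%) and from 11.7 CPM to 137 CPM with no gate (8.45%). Plat was thus called higher at P8 in arterial-type and capillary-type ECs alike, and its P8 levels in the 4 groups lay between 89.1 CPM and 138 CPM.

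Procr was lower at P8 within each of the same groups. It went from 111 CPM to 38.7 CPM with the Gja4 gate only (4.09% of genes called lower), from 30.3 CPM to 13.8 CPM with the Gpihbp1 gate only (3.61%), from 10.2 CPM to 2.43 CPM with the Car4 gate only (6.17%) and from 51.9 CPM to 21.9 CPM with no gate (4.9%). The Car4 only level at P8 rests on few counts, with an interval of 0.501 to 7.11 CPM. ECs with the Eln gate only were too few, so the Eln gate is given with its overlaps. Of its cells 92.3% at E18.5 and 88.9% at P8 also passed the Gja4 gate. In it Procr was at 134 CPM (126 to 142) at E18.5 and 95.9 CPM (86.3 to 106) at P8, also lower by more than counting error.

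Vwf was called higher from E15.5 to E18.5 in each of the 3 groups compared at that step, with log2 differences of 2.31 for Gja4 only, 1.10 for Gpihbp1 only and 2.18 for no gate. With the Gja4 gate only it went from 80.2 CPM (77.4 to 83.0) at E15.5 to 399 CPM (389.8 to 409) at E18.5 and 462 CPM (445 to 479) at P8, and 8.75% of genes were called higher at E18.5. With the Gpihbp1 gate only it went from 6.87 CPM (5.52 to 8.44) to 15.3 CPM (13.03 to 17.7) and 14.2 CPM (11.02 to 17.9), with 13.8% of genes called at the first step. ECs with no gate had 19.8 CPM, 91.3 CPM and 299 CPM (18.1% at the first step). The cells of all these groups themselves differed between the ages. In ungated cells the median depth was 8766, 4019 and 2591 UMIs, and the Cxcl12 level 108 CPM, 371 CPM and 1451 CPM. With the Gja4 gate only the depth was 7946.5, 5040 and 4617.5 UMIs, and Cxcl12 1226 CPM, 2853 CPM and 3140 CPM. With the Gpihbp1 gate only the depth was 10334, 5533 and 4886 UMIs, and Cxcl12 37.3 CPM, 54.5 CPM and 422 CPM. The part of these shifts in the members' levels in these groups was not tested. Vwf in the summed ECs was lower at P8 than at E18.5, while in the Gja4 only group and the ungated group it was higher. The distal artery-like cluster given below was lower at P8. The share of ECs in the Gpihbp1 gate was 27.8% for E15.5, 46.1% for E18.5 and 73.6% for P8. In the Gja4 only group, Tfpi was called lower from E15.5 to E18.5, from 88.7 CPM to 41.3 CPM (4.36% of genes), and F2r was called lower from E18.5 to P8, from 63.1 CPM to 27.8 CPM (4.09%). In ECs with no gate F2r was called higher from E15.5 to E18.5, from 38.1 CPM to 78.0 CPM (18.1% of genes). Its log2 difference of 1.02 (0.80 to 1.26) sat at the threshold, in a group whose depth and Cxcl12 level differed as given above. Procr and Plat were called higher at the same step in the Gja4 only group.

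**Figure D3:**
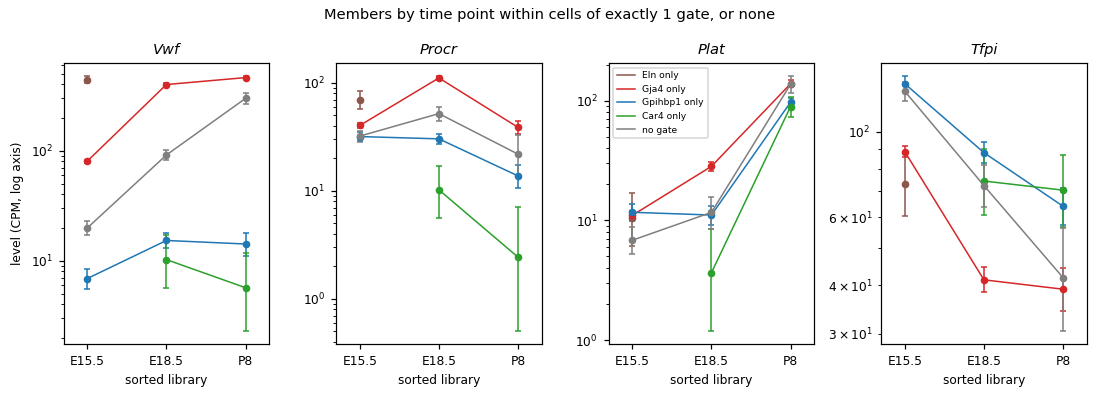
Levels of Vwf, Procr, Plat and Tfpi (CPM, log axis) by sorted age in ECs that passed exactly 1 gate or none, for groups of at least 50 cells, with 95% counting intervals. All 4 P8 groups of Plat lie between 89.1 CPM and 138 CPM, and the Gja4 only line of Vwf climbs from 80.2 CPM to 462 CPM while the Gpihbp1 only line stays at or below 15.3 CPM.

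Clusters of ECs, made within each library, gave the same order for Vwf in 4 libraries, the sorted E18.5 and P8 libraries and the whole lungs. No gCap-like cluster was named at E15.5. The 8 members and the 61 further genes listed below were left out of the clustering. None of them but Mmrn1, a lymphatic marker, was among the markers that named the clusters. The gate genes Eln, Gja4, Gpihbp1 and Car4 were among those markers, so clusters and gates rest in part on the same genes. A cluster is called by the cells whose markers it resembles. In proximal artery-like ECs Vwf was at 631 CPM on E15.5, 628 CPM on E18.5, 1136 CPM on P8, 829 CPM in the library labelled control and 787 CPM in the library labelled null. Distal artery-like ECs had 121 CPM, 385 CPM, 293 CPM, 147 CPM and 186 CPM. The gCap-like clusters, of general alveolar capillary cells, were at 23.7 CPM on E18.5, 12.5 CPM on P8, and 6.86 CPM and 7.51 CPM in the libraries labelled control and null, and the aCap-like clusters at 25.8 CPM, 7.79 CPM, 4.49 CPM and 2.77 CPM. In each of these 4 libraries both arterial clusters thus lay above both capillary ones. By age the clusters and the gate groups differed. Distal artery-like Vwf went from 385 CPM at E18.5 to 293 CPM at P8, where the Gja4 only group was higher at P8. Both capillary-like clusters were lower at P8 as well. Proximal artery-like Vwf was level from E15.5 to E18.5 (631 CPM and 628 CPM) and higher at P8 (1136 CPM).

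Selp at P8 was at 79.8 CPM (69.9 to 90.7) in proximal artery-like ECs, 1.55 CPM in distal artery-like ECs, 0.620 CPM in gCap-like ECs and without a UMI in 1064 aCap-like ECs. The cluster of systemic-type capillary-like ECs at E15.5, 499 cells, had the highest Plat level of the named EC clusters before birth, 68.9 CPM (61.6 to 76.9), where distal artery-like ECs had 9.17 CPM (8.02 to 10.4). The same kind of cluster had 21.8 CPM (16.0 to 28.9) at E18.5. It was also the named EC cluster with the most F8 at E15.5, at 8.18 CPM (5.79 to 11.2), and with the most Selp at E18.5, at 10.2 CPM (6.39 to 15.4). Tfpi in proximal artery-like ECs was at 64.7 CPM on E15.5, 38.3 CPM on E18.5 and 35.9 CPM on P8, with 79.1 CPM and 65.4 CPM in gCap-like ECs at the last 2 of these ages. F2r was highest among named EC clusters in the aCap-like ones of the whole lungs, at 141 CPM (124 to 159) and 130.5 CPM (118 to 144), but at P8 the aCap-like level was 33.2 CPM and that of gCap-like ECs 29.9 CPM.

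In whole lungs, none of the 4 classes had the highest level of all 8 genes. Vwf and Procr were endothelial, Tfpi was highest in the mesenchymal class, F3 in the epithelial class, and F2r was shared by endothelial and mesenchymal cells. The levels given next are for the libraries labelled control and null in that order.

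Vwf was at 120.03 CPM and 131 CPM in the endothelial class, 2.56 CPM and 6.79 CPM in the epithelial, 0.984 CPM and 3.75 CPM in the mesenchymal and 23.7 CPM and 15.5 CPM in the immune class. Procr was at 55.6 CPM and 50.6 CPM in the endothelial class, 2.64 CPM and 3.05 CPM in the epithelial, 1.05 CPM and 2.303 CPM in the mesenchymal and 7.06 CPM and 4.68 CPM in the immune class. These were the 2 of 8 members that were highest in the endothelial class by 2-fold in both libraries, where 5.3% of 10823 genes were. By any margin 4 members were, with F8 and F2r added, against 23.4% of genes. F8 was under 10 CPM in every class, so it was not among the genes of that share. In the immune class, the monocyte-like cluster held the most Vwf, at 31.0 CPM (27.6 to 34.8) and 24.1 CPM (21.01 to 27.6), and 5.60% and 6.16% of immune cells had a Vwf UMI before thinning and 2.67% and 1.26% after it.

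Tfpi was at 136 CPM (132 to 140.2) and 115 CPM (111 to 118) in the mesenchymal class, 108 CPM and 84.6 CPM in the endothelial, 30.2 CPM and 30.6 CPM in the immune and 9.21 CPM and 8.10 CPM in the epithelial class. The inhibitor was thus above the endothelial level in mesenchymal cells of both libraries. Within the mesenchyme it was highest in the myofibroblast-like cluster, at 179 CPM (170.2 to 188) and 159 CPM (149 to 168), and at 84.7 CPM and 82.1 CPM in alveolar fibroblast-like cells. Smooth muscle-like cells had 142 CPM and 141 CPM of Tfpi and pericyte-like cells 117 CPM and 106 CPM.

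F3 was at 83.6 CPM (78.6 to 88.8) and 83.0 CPM (77.8 to 88.5) in the epithelial class, 36.4 CPM and 27.6 CPM in the mesenchymal, 4.38 CPM and 4.68 CPM in the immune and 1.77 CPM and 0.834 CPM in the endothelial class. The epithelial levels of the 2 libraries overlapped. The epithelium was itself uneven, with 235 CPM (218 to 254) and 206 CPM (190.04 to 223) in airway secretory-like cells, 61.2 CPM and 79.9 CPM in AT1-like cells, and 29.5 CPM and 20.1 CPM in AT2-like cells, the flat and the secretory cells of the alveolus. The mesenchyme differed as widely, with 85.6 CPM (79.2 to 92.3) and 80.9 CPM (74.2 to 88.1) of F3 in myofibroblast-like cells and 3.17 CPM (2.17 to 4.47) and 2.69 CPM (1.83 to 3.82) in alveolar fibroblast-like cells. In airway secretory-like cells 42.0% and 35.3% had an F3 UMI after thinning and 85.5% and 90.4% before it, against 0.236% and 0.262% of the endothelial class after thinning.

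F2r was at 83.3 CPM and 91.2 CPM in the endothelial class, 66.5 CPM and 58.1 CPM in the mesenchymal, 19.1 CPM and 21.4 CPM in the epithelial and 12.997 CPM and 12.97 CPM in the immune class. The pericyte-like cluster stood above all other named clusters, at 267 CPM (249 to 286) and 246 CPM (228 to 264), and F2r was seen in 29.2% and 33.6% of these cells after thinning. Myofibroblast-like cells had 47.1 CPM and 39.0 CPM and alveolar fibroblast-like cells 21.7 CPM and 24.5 CPM. In the epithelium AT1-like cells had 47.7 CPM and 54.9 CPM of F2r.

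**Figure D4:**
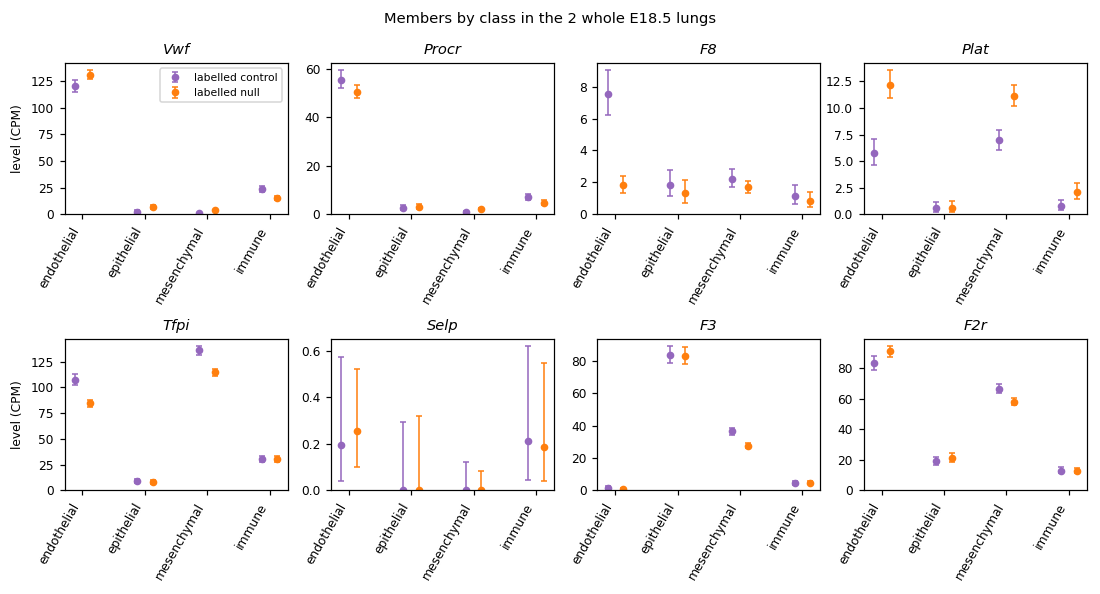
Level of the 8 genes (CPM) in the endothelial, epithelial, mesenchymal and immune classes of the 2 whole E18.5 lungs, named by their labels, with 95% counting intervals. Vwf and Procr stand in the endothelial class, F3 is highest in the epithelial class at 83.6 CPM and 83.0 CPM, and Tfpi in the mesenchymal class at 136 CPM and 115 CPM.

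Plat was also found in mesenchymal cells. In the whole lungs it was at 6.95 CPM (6.05 to 7.95) and 11.1 CPM (10.2 to 12.2) in the mesenchymal class and 5.77 CPM (4.62 to 7.10) and 12.2 CPM (10.9 to 13.6) in the endothelial class, with at most 2.12 CPM in the other classes. Within the mesenchyme, pericyte-like cells had 15.04 CPM (10.9 to 20.2) and 29.1 CPM (23.3 to 35.8), mesothelial-like cells of the library labelled control 19.3 CPM (14.1 to 25.7) and adventitial fibroblast-like cells of the library labelled null 17.3 CPM (15.005 to 19.9), whereas alveolar fibroblast-like cells had 0.890 CPM and 0.867 CPM. In the sorted E13.5 library the cells outside the EC gate had 37.1 CPM (35.9 to 38.3) of Plat and the ECs 14.4 CPM. F8 and Selp were low in every class, with F8 at 7.53 CPM and 1.81 CPM in the endothelial class and 0.811 CPM to 2.23 CPM elsewhere, and Selp at 0.254 CPM or less.

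**Figure D5:**
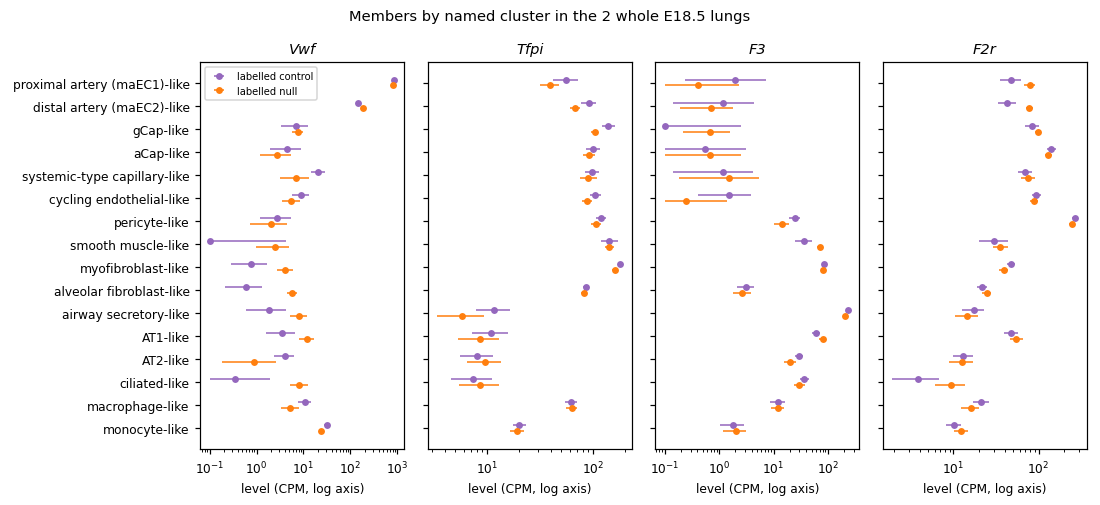
Levels of Vwf, Tfpi, F3 and F2r (CPM, log axis) in selected named clusters of at least 50 cells of the 2 whole lungs, with a level of 0 drawn at 0.1 CPM. Mesothelial-like, adventitial fibroblast-like and cycling mesenchymal and immune clusters are not drawn. Among the clusters drawn, the proximal artery-like lead for Vwf at 829 CPM and 787 CPM. The airway secretory-like lead for F3 at 235 CPM and 206 CPM, and the pericyte-like for F2r at 267 CPM and 246 CPM.

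Between the 2 whole lungs, 1 member was called in the endothelial class. Plat was higher in the library labelled null, 12.2 CPM against 5.77 CPM, a log2 difference of 1.02 at the edge of the threshold, where 0.621% of 8374 genes were called. The call was lost with a pseudocount of 5 CPM (0.67) and at a clustering resolution of 0.4 (0.99). Within the Gja4 only and Gpihbp1 only ECs the Plat difference was 0.26 and 0.62, not called. In ECs with no gate Plat was called, at 11.1 CPM from 9 UMIs in 132 cells of the library labelled null against no UMI in 129 cells of the library labelled control, which allows up to 3.70 CPM at 3 counts (3.16% of genes called higher). The share of ECs in the Gja4 gate was 30.4% in the library labelled control and 49.7% in the library labelled null. F8 was lower there, 1.81 CPM (1.35 to 2.39) against 7.53 CPM (6.22 to 9.04), a log2 difference of -1.80, not called because both levels were under 10 CPM. Among ECs with the Gpihbp1 gate only, F8 was at 11.001 CPM (8.89 to 13.5) in the library labelled control and 2.16 CPM (1.35 to 3.26) in the library labelled null, which was called at -2.11 (0.304% of 8228 genes lower). The sorted E18.5 library had 4.36 CPM (3.21 to 5.78) of F8 in the same gate. No member was called in the epithelial, mesenchymal or immune class, where 1.73%, 1.2% and 1.19% of genes were. Since the Cxcl12 level contradicts the labels, and each label has 1 library, these differences cannot be told apart from differences between libraries.

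The members' surroundings in the pathway were followed with a list of 61 further haemostasis genes, of which 23 reached the level to be tested in ECs from E15.5 to E18.5. Of these, 4 were called higher at E18.5 and 4 lower, where 13.7% of all genes were called in either direction. Among them, Thbd, the thrombin cofactor that works next to Procr, went from 30.3 CPM to 182 CPM, Plaur, the urokinase receptor, from 13.5 CPM to 90.05 CPM and Pros1, the cofactor of activated protein C, from 15.6 CPM to 45.9 CPM. Those called lower were Serpine2 from 45.1 CPM to 22.1 CPM, F10 from 10.8 CPM to 2.93 CPM, Vcam1 from 14.9 CPM to 6.26 CPM and Ptgis from 55.1 CPM to 27.0 CPM.

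From E18.5 to P8, 3 of 22 tested genes of the list were called higher and 2 lower, where 8.48% of all genes were called. Among those higher, Icam1, a leukocyte adhesion receptor, went from 89.4 CPM to 208 CPM and Gas6, a vitamin K-dependent ligand, from 9.10 CPM to 21.1 CPM. Cd63, a Weibel-Palade body membrane protein, went from 149 CPM to 54.1 CPM and Mmrn1, which binds factor V, from 29.1 CPM to 1.57 CPM. Mmrn1 also marks lymphatic ECs. The list of 8 lymphatic markers, which includes Mmrn1 itself, went from 660 CPM in E18.5 ECs to 401 CPM in P8 ECs. It had 5 markers at 10 CPM or more at E18.5 and 3 at P8, and Mmrn1 was among those that fell below. The part of lymphatic ECs in the fall of Mmrn1 was not tested. Thbd was at 264 CPM on P8 and was not called, in contrast to its partner Procr.

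In the Eln gate 4 of 22 tested genes of the list were called higher in every sorted library used, against 3.22% of all genes, and none lower. They were Cd63, Vcam1, Ptgis, the prostacyclin synthase, and Mcfd2, which helps export factor VIII from the endoplasmic reticulum. None of these 4 was among the genes highest in the endothelial class of whole lungs, listed below. The mesenchymal list was higher in the Eln gate, as given above, and the part of mesenchymal RNA in these calls was not tested. Cd63 in the gate was at 580.1 CPM on E15.5, 442 CPM on E18.5 and 299 CPM on P8, where all ECs had 252 CPM, 149 CPM and 54.1 CPM. In the Car4 gate 1 of 20 tested genes was called higher and 2 lower, Cd63 and Entpd1, against 1.78% of all genes called lower. No gene of the list was called in all sorted libraries for the Gja4 or the Gpihbp1 gate, of 19 tested each. In whole lungs 5 of 33 tested genes, Mmrn1, Mmrn2, Icam2, Pecam1 and Nos3, were highest in the endothelial class by 2-fold in both libraries, against 5.3% of all genes. Pecam1 was part of the EC gate, though not among the markers that set the classes.

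The genes whose pattern was most like each member were taken over 12 groups, the sorted ECs of exactly 1 gate or none by age, by Pearson's r of log2(CPM + 1) among genes that reached 20 CPM in a group. The coefficients are descriptions over groups that share libraries. For Vwf the 3 highest were Ltbp4, Afap1l2 and Fbln5 at 0.97 each, and for Procr Tinagl1 at 0.96, Kcnq1ot1 at 0.95 and Enah at 0.94. For Plat they were Topors at 0.97, Bmi1 at 0.96 and Gdf15 at 0.96, and for Tfpi Cfdp1 and Rcc1 at 0.95 each and Ndufb10 at 0.94. F2r had Smim3 and Serpinb6b at 0.87 each and Stt3b at 0.85. F8, Selp and F3 reached only 4.36 CPM, 7.61 CPM and 9.51 CPM in these groups, so their leading genes, Cdca4, Ints9 and Gprasp1 at 0.86, 0.85 and 0.93, rest on few counts. Among the members, Vwf and Procr had an r of 0.69, Vwf and Tfpi -0.68 and Plat and Tfpi -0.69.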

How the data were processed

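Droplet libraries of 3′ tags (10x v3) were made from 4 sorted and 2 whole mouse lung samples. The authors aligned reads to mm10 with CellRanger (per the file headers, version 3.0.2 for E15.5, E18.5 and P8 and 3.1.0 otherwise) and deposited UMI counts, whole and not normalized. For the whole lungs they also deposited expected counts, UMI counts that SoupX adjusted for free RNA, which served as an alternative without rounding. Cells with at least 700 genes and 0.5% to 10% mitochondrial UMIs were kept, the whole lungs filtered on the SoupX values.

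The members and lists were chosen with earlier results of these data known. Samples were grouped by their labels. Levels are summed UMIs in CPM with exact Poisson 95% intervals, and shares with those of Clopper and Pearson. Where no UMI was seen, the limit given is the level of 3 counts. Intervals cover counting error only. Log2 ratios add 0.5 CPM. A population needed 50 cells. With 1 library per condition no test could be made, and genes past 2-fold with at least 10 CPM were called. The rule was tested on simulated counts, which cover counting noise alone.

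Clusters came from Pearson residuals and Louvain clustering (resolution 0.8, python-igraph 0.11.9, scanpy 1.11.5). The limits for classes (a marker level of 5 on the log2 scale, a gap of 1) and the type score of 0.1 were set after the clusters were seen. Doublets were kept, and Scrublet calls were left out as an alternative. Where Scrublet's own cut marked almost no cells (E13.5, E18.5 and P8), the highest scores at 0.8% per 1000 cells were taken. The text names all 8 members, the genes called in the further list (1 of them is not reported here) and the 3 genes most like each member by Pearson's r. Of the leading genes of F8, Selp and F3 only the first is named. Gene places follow GENCODE M21. The other settings tried were another level (mean of per-cell CPM), pseudocount, denominator, cell filter, EC gate, gate overlap, depth, resolution and seed.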

Additional observations from a re-analysis of the deposited data

How the results depend on the processing

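No paired analysis was possible because each condition had 1 library, and no replicate could be left out. Of 1880 values of single genes under other settings, 1559 stayed within their counting interval or within 0.1 on the log2 scale, 320 moved by more and 1 reversed. Of 400 values of called differences, 399 kept their direction and 21 fell under 2-fold. The reversed value was Plat in the Gpihbp1 gate of the library labelled control, -1.24 in the report's setting and 3.20 for cells of exactly that gate against cells of no gate, which had no Plat UMI. The number of members called from E15.5 to E18.5 went from 1 to 0 with the mean of per-cell CPM, with a pseudocount of 5 CPM, without haemoglobin, mitochondrial and ribosomal UMIs, and with an EC gate of at least 4 UMIs, where Vwf gave 0.73, 0.99, 0.89 and 1.00. For the Eln gate it went from 1 to 3 with exactly 1 gate against none, a setting that E15.5 alone of the sorted ages could fill. For the Gja4 gate it went from 1 to 0 with the mean of per-cell CPM (Vwf at P8 0.77) and with exactly 1 gate against none (0.63). Between the libraries labelled null and control, the 1 endothelial call became 0 with a pseudocount of 5 CPM (Plat 0.67) and at resolution 0.4 (0.99), and 2 with the reduced denominator and with the SoupX values. The cause was not tested. F8, Selp and F3 rest on few UMIs in most EC populations, so differences in them were often not detectable at this depth.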

Other observations

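The 1 cluster named vein-like held 34 cells of the library labelled null, so cells with the venous marker Nrg1 were looked at across libraries. The sort for DsRed should have kept most venous cells out of the sorted libraries, so their Nrg1 cells are not called venous. ECs with at least 2 UMIs of Nrg1 and none of the lymphatic regulator Prox1, a gate chosen after the data had been seen, numbered 21 at E15.5, 16 at E18.5, 2 at P8, and 9 and 8 in the libraries labelled control and null, with none at E13.5. Vwf in these cells stood at 427 CPM (348 to 518) in the E15.5 library and at 815 CPM (683 to 966) in the E18.5 library, and Procr at 238 CPM (181 to 309) and 420 CPM (327 to 531.3). Both Procr levels were above the Eln gate's 62.1 CPM and 134 CPM in the same libraries. The Vwf level was above that of the Eln gate in the E18.5 library (629 CPM) but not in the E15.5 library (445 CPM). The 9 cells of the library labelled control had 2602 CPM of Vwf and the 8 of the library labelled null 1224 CPM, with 553 CPM and 296 CPM of Procr. These groups are below the 50 cells asked of other populations and are given as values.

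Among the 61 further haemostasis genes, the 2 whole lungs differed in a few members outside the endothelium. In the epithelial class 4 of 24 tested genes were called higher in the library labelled null, Plaur at 13.2 CPM against 4.002 CPM, F10 at 11.2 CPM against 2.88 CPM, F13a1 at 30.9 CPM against 12.9 CPM and Selplg at 13.6 CPM against 4.002 CPM, where 1.73% of all genes were called in either direction. Plaur, F13a1 and Selplg are also known from leukocytes. In the mesenchymal class 3 of 23 were called (1.2% of all genes), S100a10 and Icam2 higher there (339 CPM against 145 CPM and 12.5 CPM against 5.87 CPM) and Nt5e lower (18.9 CPM against 41.6 CPM). In the immune class Serpine2 was called higher, at 51.2 CPM against 24.7 CPM, 1 of 25 (1.19% of all genes), and in the endothelial class none of 22 was called (0.621% of all genes). Each label has 1 library, so these values cannot be told apart from differences between libraries.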
